A study of Homo sapiens with 8 samples.

Results

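Quaking (QKI) and 9 other RNA-binding proteins that set tissue-type splicing patterns were followed in prostate cancer cells with and without overexpression of miR-375. The members were the genes whose symbol in the count table was QKI, ESRP1, ESRP2, RBFOX2, MBNL1, MBNL2, MBNL3, CELF1, CELF2 or RBM47, which is 10 of 60622 gene lines used. Poly(A) RNA-seq was made from 2 human cell lines, LNCaP, an androgen-responsive line from a lymph node metastasis, and PC3, a line from a bone metastasis. Each line was represented by 2 control libraries and 2 libraries with miR-375 overexpressed, 8 libraries in all. The controls are titled NC. The labels give no further allele, agent or time, and the way miR-375 was raised and the control treatment were not given in the sources used here. LNCaP grew in 10% and PC3 in 20% serum, so line and serum cannot be told apart. Nothing in the labels states whether both libraries of a group were grown as separate cultures, so each p-value reflects library-to-library spread that may be technical.

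Alternative exons are chosen largely by RNA-binding proteins that sit beside them and favour or block their inclusion. ESRP1 and ESRP2 keep epithelial exon choices, and RBM47 has also been tied to epithelial splicing, whereas QKI, MBNL and RBFOX proteins act on many exons that switch when epithelial cells become mesenchymal. QKI has been described as a target of miR-375, which pairs with messenger RNAs through its seed, the bases near its 5′ end. Gene counts sum all isoforms of a gene, so they show neither exon use nor which QKI isoform was present.

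The sequences below show the miR-375-3p seed and some of the places it can pair in the members' 3′ UTRs, since pairing sites are what the microRNA reads. The mature sequence is from RefSeq (GRCh38.p14, chr2:219001648-219001669, minus strand), with seed bases 2 to 8 in capitals. The target windows are from GENCODE transcripts (GRCh38), 30 bases each, with the site in capitals. The first 5 are the sites of the annotated QKI transcript QKI-205, in order from its stop codon.
miR-375-3p: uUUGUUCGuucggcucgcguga
QKI site 1: atataaacgcttggttttacatGAACAAAa
QKI site 2: tataacacgaccagtcaatgtgGAACAAAc
QKI site 3: actcaggtgccctttgtttcatGAACAAAt
QKI site 4: tcactaacagtgattgttcagtGAACAAAa
QKI site 5: gaaaaagcaataaacatttattGAACAAAa
MBNL1 site: tcttgtctagttttcattaaaaGAACAAAg
RBM47 site: ctttttttttttttagtgttaaGAACAAAc

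All of these are the GAACAAA form, called 7mer-A1, which matches bases 2 to 7 of the microRNA and adds an A. No member had CGAACAA, the match to bases 2 to 8, with or without a following A, in any annotated 3′ UTR. The QKI windows, all on the plus strand, lie at chr6:163564592-163564621, chr6:163564745-163564774, chr6:163565038-163565067, chr6:163568021-163568050 and chr6:163570112-163570141. The MBNL1 window is chr3:152464376-152464405 on the plus strand, and that of RBM47 is chr4:40423443-40423472 on the minus strand. QKI (ENSG00000112531, chr6:163414000-163578596) had 9 distinct sites over its 3′ UTR forms. Of its 6 annotated coding transcripts, 4 held at least 1 site, and the longest 3′ UTR (7886 bases, transcript QKI-203) held 4 sites other than those printed. CELF1 had 2 sites and MBNL1, MBNL3 and RBM47 had 1 each, while ESRP1, ESRP2, RBFOX2, MBNL2 and CELF2 had none. The CELF1 and MBNL3 windows are not printed. The changes of CELF1 and MBNL3 did not pass in either line (below), whereas QKI, MBNL1 and RBM47 each changed in at least 1 line. The printed windows therefore do not show whether sites go with change. The longest annotated 3′ UTR held a site of some form (GAACAAA or CGAACAA, sense strand, an 8-base match counted once) in 15% of 19578 coding genes and a CGAACAA match in 1.05%. As many GAACAAA sites as the 4 in the longest QKI 3′ UTR were found in 37 genes (0.189%). Among the 367 genes with a 3′ UTR at least that long, 22 reached 4 and the median was 1. A match is a description of letters, not evidence that the site is used.

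Library totals ran from 33973861 to 41890528 counts. MIR375 had 0 counts in every library, which checks nothing, since poly(A) libraries do not capture the mature microRNA. Summed levels of 6 LNCaP markers were 5105 to 5140 CPM in LNCaP controls against 51.0 to 56.5 in PC3, with KLK3 and KLK2 at 0 in PC3. Summed levels of 3 PC3 markers were 1184 to 1190 CPM in PC3 controls and 3.72 to 4.68 in LNCaP controls. Each line's own markers moved with miR-375: LNCaP markers in LNCaP stood at 3890 to 3998 CPM (3 of 6 fell and 1 rose), and PC3 markers in PC3 at 599 to 603 (FOSL1 fell by 1.29 and CAV1 fell by 0.96 on the log2 scale, and KRT7 passed, upwards, with total-count scaling alone). With miR-375 in PC3, fibroblast markers moved from 168 to 181 up to 390 to 410 CPM (5 genes, 3 higher and 1 lower). Most of that was COL1A1, which rose from 139 to 373 CPM, while PDGFRA fell from 33.7 to 23.2 CPM (group means). Endothelial markers in PC3 moved from 367 to 368 down to 205 to 206 (4 genes, mostly KDR), and the sum of 4 epithelial markers from 392 to 396 down to 299 to 315. That sum is mostly keratin RNA: KRT8 fell from 249 to 155 CPM and KRT18 from 132 to 112 CPM (group means), while the far scarcer CDH1 and EPCAM rose. Leukocyte markers stayed between 0.229 and 1.68 CPM in all groups, with CD3E at 0 in LNCaP. The part of these markers in the results below was not tested.

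Levels are CPM, each count divided by its TMM-scaled library size and multiplied by 1e+06. Changes compare miR-375 with control as log2 fold changes, given ± SE. A gene is said to rise or fall where the adjusted p of edgeR's quasi-likelihood test over 21066 genes was under 0.05. Of the 10 members 9 passed the filter on low counts and CELF2 did not. In LNCaP 3 members fell and 1 rose, against 32.6% of all tested genes called in either direction (18.7% lower and 13.9% higher). In PC3 2 fell and 2 rose, against 43.0% of all tested genes (20.8% lower and 22.2% higher). The called share of the tested members was 44.4% in each line, which with 9 genes is near the background in both lines, so the count does not set the members apart. The median change of the tested members was −0.13 in LNCaP and −0.04 in PC3, beside medians over all tested genes of 0 and 0.02. In bulk RNA a change in the mix of cells cannot be told apart from a change per cell.

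**Figure D1:**
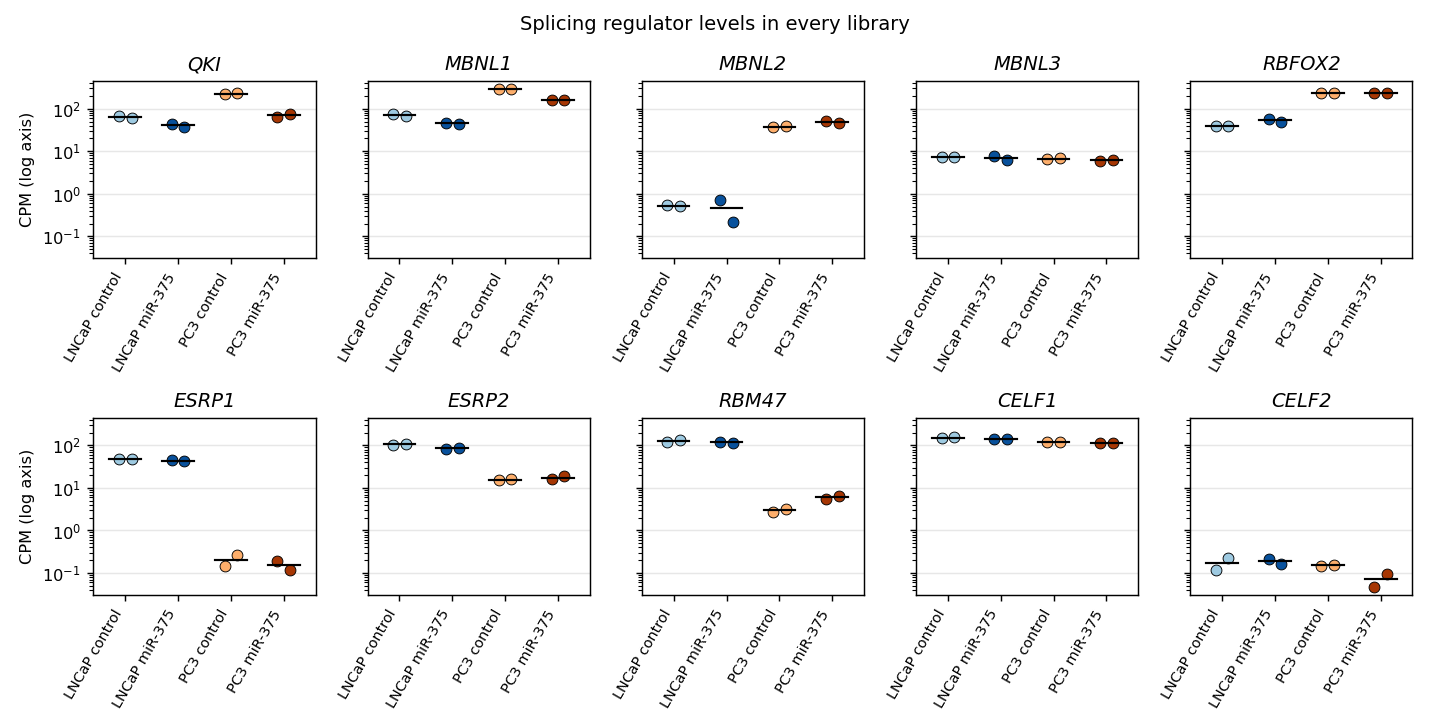
CPM (log axis) of each of the 10 splicing regulators in every library; points are the 2 libraries of a group and the bar is their mean. QKI and MBNL1 sit lower with miR-375 in both lines, while ESRP1, ESRP2 and RBM47 are far lower in PC3 than in LNCaP.

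QKI fell in both lines, and more in PC3. The LNCaP controls held 66.7 and 61.8 CPM, and the LNCaP libraries with miR-375 held 44.0 and 37.3 CPM. PC3 went from 219 and 232 CPM in the controls to 65.2 and 73.4 CPM with miR-375. The groups did not overlap in either line, and PC3 with miR-375 came close to the LNCaP controls. The log2 change was −0.66 ± 0.07 in LNCaP (1.58-fold lower, adjusted p = 2.83e-09) and −1.70 ± 0.06 in PC3 (3.25-fold lower, adjusted p = 5.57e-20). In LNCaP 9.90% of all tested genes had a lower change than QKI, and in PC3 2.59%. The difference between the changes, LNCaP minus PC3, was 1.04 ± 0.09 on the log2 scale (adjusted p = 2.09e-10). Before miR-375 was raised QKI was 3.51-fold higher in PC3 than in LNCaP controls (adjusted p = 1.36e-21).

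Genes with a miR-375-3p site were set beside QKI to show where its change lies. Of 14976 tested genes with an annotated 3′ UTR, 12471 held no site, and their median log2 change was 0.00 in LNCaP and 0.02 in PC3. The 2505 genes with any site had medians of −0.12 and −0.06, and 35.1% of them fell in LNCaP and 35.8% in PC3, against 23.4% and 25.2% of genes without a site. The 118 genes with 3 or more GAACAAA sites and no CGAACAA match, QKI among them, had medians of −0.14 and −0.04, and the 169 genes with CGAACAA had −0.10 and −0.00. Among those 118 genes 21 had a lower change than QKI in LNCaP and 3 in PC3. Site-bearing genes had longer 3′ UTRs (median 3024 bases against 1050), and the part of length in this shift was not tested.

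**Figure D2:**
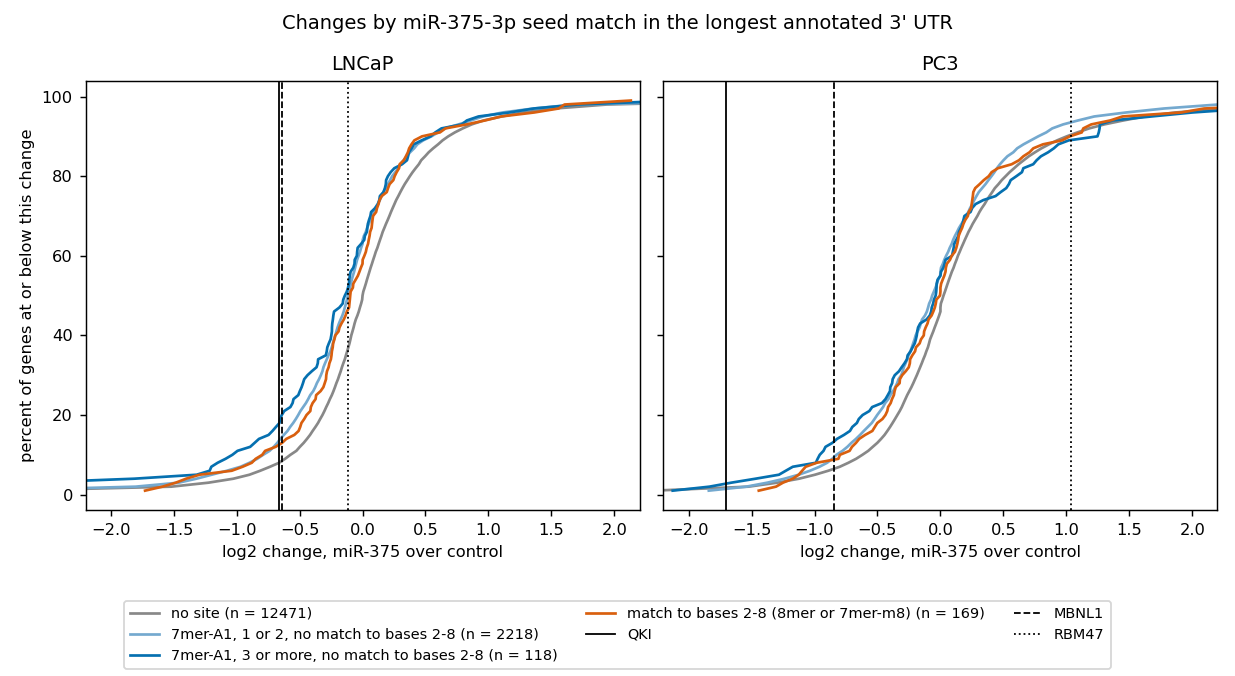
Cumulative percent of genes (vertical axis) at or below each log2 change (horizontal axis) in LNCaP and PC3, by miR-375-3p seed match in the longest annotated 3′ UTR; vertical lines mark QKI, MBNL1 and RBM47. The curves of site-bearing genes lie slightly to the left of the 12471 genes without a site through the middle of the range, and QKI at −1.70 in PC3 lies far in the left tail.

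The MBNL proteins, muscleblind homologues that control developmental switches in splicing, did not share a direction in PC3. MBNL1 went from 74.3 and 68.2 CPM to 46.9 and 44.6 CPM with miR-375 in LNCaP. In PC3 it went from 289 and 283 CPM to 157 and 162 CPM. It fell by 0.64 ± 0.05 on the log2 scale in LNCaP (adjusted p = 5.44e-13) and by 0.84 ± 0.04 in PC3 (adjusted p = 8.90e-19), without overlap of groups. The difference between the lines was 0.21 ± 0.07 (adjusted p = 0.0162). That call ended without the first PC3 control (adjusted p = 0.0615) or the first PC3 miR-375 library (adjusted p = 0.0705).

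MBNL1-AS1, an antisense gene, shares 1033 exonic bases with MBNL1 on the opposite strand and had from 35 to 234 counts a library, at most 4.03% of the counts of MBNL1. The libraries keep strand (dUTP), but the strand setting of the counting was not given in the sources used here, so reads in the shared bases cannot be told apart. Its own changes were 0.57 in LNCaP (adjusted p = 0.145) and 0.32 in PC3 (adjusted p = 0.261), and neither passed.

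MBNL2 was close to absent in LNCaP and moderate in PC3. In LNCaP it had 18 and 18 counts in the controls and 26 and 8 with miR-375 (0.544 and 0.515 against 0.704 and 0.221 CPM), so the groups overlapped. Its 36.8 and 39.4 CPM in the PC3 controls became 51.4 and 46.3 CPM with miR-375, a rise of 0.36 ± 0.09 (adjusted p = 0.00198). The rise lost its call without the first PC3 miR-375 library (0.28, adjusted p = 0.0758). The LNCaP change of −0.18 ± 0.40 had a 95% interval from −0.99 to 0.62 before adjustment, so a change of the size seen in PC3 was not detectable at this depth. The difference between the lines, −0.54 ± 0.41, did not pass (adjusted p = 0.375) but did without the first LNCaP miR-375 library (−1.53, adjusted p = 0.0354). MBNL3 stayed between 6.05 and 7.64 CPM in all 8 libraries, with changes of −0.07 ± 0.16 in LNCaP and −0.12 ± 0.16 in PC3, neither of which passed (adjusted p = 0.827 and 0.599).

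Levels of the 3 MBNL genes can be set against each other per kilobase of annotated exon (GENCODE exon union, which may not be the annotation the authors counted on). MBNL1 made up 93.9% and 93.5% of the family's summed CPM per kilobase in the LNCaP controls and 89.9% and 92.2% with miR-375. In PC3 its share was 84.2% and 82.9% in the controls and 67.8% and 70.6% with miR-375. MBNL2 took 14.8% and 15.9% of the family in the PC3 controls and 30.7% and 27.9% with miR-375. The family's total was 51.3 and 50.9 CPM per kilobase in the PC3 controls and 34.5 and 34.2 with miR-375. So the PC3 libraries with miR-375 held less MBNL RNA in total, and a larger share of it was MBNL2. Shares from 2 against 2 libraries were not tested, since an exact two-sided permutation test cannot give a p below 0.333.

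RBFOX2, which binds GCAUG motifs beside regulated exons, rose in LNCaP with miR-375. Its LNCaP levels were 38.2 and 39.6 CPM without and 55.8 and 49.9 CPM with miR-375, a change of 0.44 ± 0.05 (1.36-fold, adjusted p = 1.36e-08) without overlap. In PC3 it stood at 229 and 231 CPM in the controls and 230.5 and 235 with miR-375, where the groups overlapped. The PC3 change was 0.02 ± 0.04, with a 95% interval before adjustment from −0.07 to 0.11 (adjusted p = 0.770). The difference between the lines, 0.42 ± 0.07, passed (adjusted p = 6.26e-06). The PC3 controls held 5.91-fold more RBFOX2 RNA than the LNCaP controls (adjusted p = 4.58e-33).

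**Figure D3:**
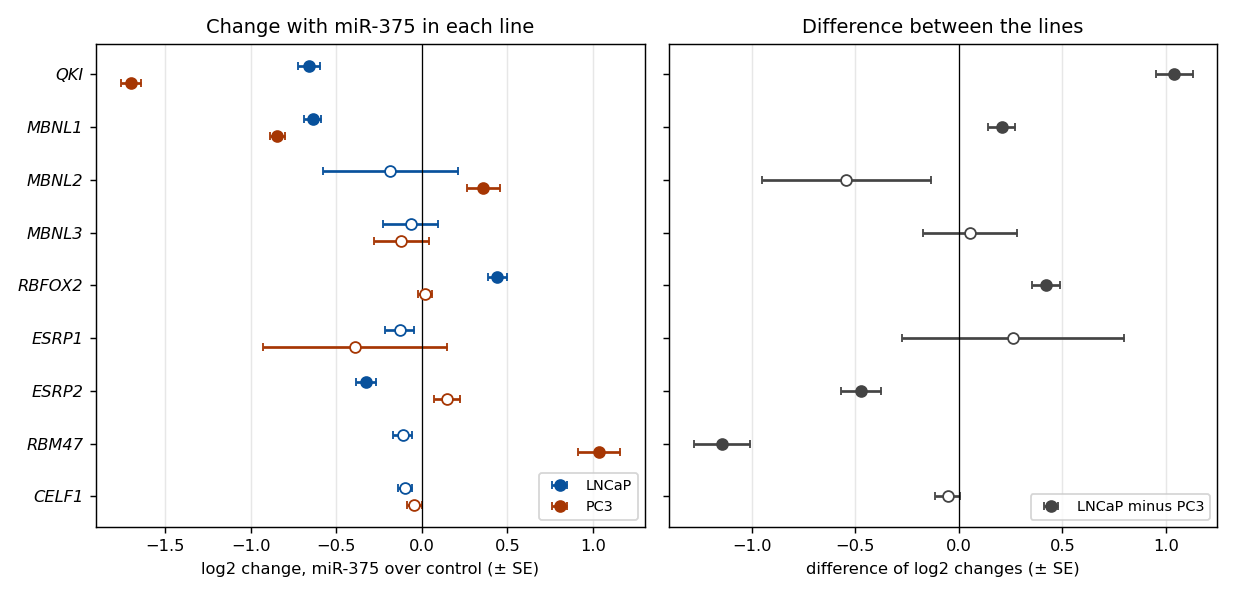
Left, log2 change with miR-375 (± SE) of the 9 tested members in LNCaP (blue) and PC3 (brown); right, the difference of the 2 changes (LNCaP minus PC3, ± SE). Filled points have an adjusted p under 0.05 and open points do not: QKI and MBNL1 are filled in both lines, RBFOX2 and ESRP2 in LNCaP alone, MBNL2 and RBM47 in PC3 alone.

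The epithelial regulators were abundant in LNCaP and lower in PC3, where ESRP1 was close to absent, RBM47 scarce and ESRP2 moderate. ESRP1 had 1579 and 1687 counts in LNCaP without miR-375 (47.7 and 48.3 CPM) against only 6 and 10 in PC3 (0.150 and 0.259 CPM), a 232-fold lower fitted level (adjusted p = 5.95e-31). For ESRP2 the controls held 104 and 111 CPM in LNCaP against 15.3 and 16.1 CPM in PC3, 6.85-fold lower (adjusted p = 1.52e-29). For RBM47 they held 123 and 131 CPM in LNCaP against 2.72 and 3.19 CPM in PC3, 43.0-fold lower (adjusted p = 1.09e-35). Per kilobase, ESRP2 made up 68.8% and 69.8% of the ESRP sum in LNCaP without miR-375 and 99.0% and 98.4% in PC3.

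With miR-375, ESRP1 did not pass in either line. It stood at 45.4 and 42.4 CPM in LNCaP with miR-375, a change of −0.13 ± 0.09 with a 95% interval before adjustment from −0.30 to 0.04 (adjusted p = 0.276). PC3 with miR-375 had 8 and 5 counts (0.190 and 0.119 CPM), which overlapped its controls. The change there, −0.39 ± 0.54, had an interval from −1.48 to 0.70 (adjusted p = 0.613), too wide to tell a fall from a rise.

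ESRP2 fell in LNCaP, to 84.5 and 87.2 CPM, by 0.32 ± 0.06 on the log2 scale (adjusted p = 2.71e-05), without overlap. In PC3 it stood at 16.2 and 18.6 CPM with miR-375, just above both controls, and its change of 0.15 ± 0.08 did not pass (adjusted p = 0.130). That PC3 change passed with total-count scaling (0.22, adjusted p = 0.0189) and without the first PC3 miR-375 library (0.25, adjusted p = 0.0273). The changes in the lines differed by −0.47 ± 0.10 (adjusted p = 0.000251). NFATC3 shares 149 exonic bases with ESRP2 on the opposite strand and reached up to 149% of the ESRP2 counts in a PC3 library. NFATC3 itself rose in PC3 by 0.35 (adjusted p = 0.0139), and its part in the PC3 values of ESRP2 was not tested.

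RBM47 rose in PC3 from a low level. Its 109 and 123 counts in the PC3 controls became 232 and 277 with miR-375, or 5.52 and 6.57 CPM, a change of 1.03 ± 0.12 (2.05-fold, adjusted p = 6.95e-09) without overlap. Even so the PC3 libraries with miR-375 remained far below LNCaP, where RBM47 stood at 119.8 and 115 CPM with miR-375. The LNCaP change, −0.11 ± 0.06, did not pass (adjusted p = 0.132). The difference between the lines was −1.15 ± 0.14 (adjusted p = 1.92e-08). Its GAACAAA site, printed above, is in the 3′ UTR of 2 of its 4 annotated coding transcripts.

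CELF1 and CELF2 belong to a family that often acts opposite to MBNL proteins on the same exons. CELF1 held 150.0 and 156 CPM in the LNCaP controls against 142 and 144 CPM with miR-375. In PC3 it held 119 and 119.6 CPM in the controls against 115 and 117 CPM with miR-375. Its changes, −0.10 ± 0.04 in LNCaP (adjusted p = 0.0692) and −0.04 ± 0.04 in PC3 (adjusted p = 0.443), did not pass, although neither pair of groups overlapped. Groups did not overlap for 7 of the 9 tested members in each line, against 62.9% of all tested genes in LNCaP and 66.8% in PC3. With limma-voom the LNCaP change of CELF1 passed (adjusted p = 0.0491). CELF2, the family's form best known from muscle, brain and blood cells, had from 2 to 8 counts in each library and was not tested.

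Between the lines, 5 of the 9 tested members changed differently with miR-375, against 26.5% of all tested genes. QKI, MBNL1 and RBFOX2 had the higher change in LNCaP (10.9% of all tested genes), and ESRP2 and RBM47 the higher change in PC3 (15.6%). In the controls, 8 of 9 differed between PC3 and LNCaP, against 80.4% of all tested genes, and MBNL3 did not pass (−0.12 ± 0.16, adjusted p = 0.495). QKI, RBFOX2, MBNL1 and MBNL2 were higher in PC3 (39.2% of all tested genes), and ESRP1, ESRP2, RBM47 and CELF1 were lower in PC3 (41.2%). All 9 had controls that did not overlap between the lines, as did 89.8% of all tested genes. The largest of these differences after ESRP1 was that of MBNL2, 71.5-fold higher in PC3 (adjusted p = 1.83e-27). These line and interaction comparisons share their control libraries with the miR-375 comparisons.

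A ratio of counts within a library does not depend on how libraries are scaled. It does depend on gene length (15814 exonic bases for QKI, 3868 for ESRP1), so only its shift is read here. The count ratio of ESRP1 to QKI was 0.715 and 0.782 in the LNCaP controls and 1.03 and 1.14 with miR-375, a log2 shift of 0.53. Per kilobase ESRP1 was already above QKI in the LNCaP controls (means of 12.4 and 4.06 CPM per kilobase). For ESRP2 to QKI the ratio went from 1.56 and 1.79 to 1.92 and 2.34 in LNCaP and from 0.0698 and 0.0696 to 0.248 and 0.253 in PC3. RBM47 counts were 1.85 and 2.12 times those of QKI in the LNCaP controls and 2.73 and 3.10 times with miR-375. In PC3 the RBM47 to QKI ratio went from 0.0124 and 0.0138 to 0.0846 and 0.0895, a log2 shift of 2.73 or 6.65-fold. The shift of ESRP1 to QKI in PC3, 1.31, rests on 5 to 10 ESRP1 counts a library. In every one of these pairs the 2 miR-375 libraries of a line lay above its 2 controls. The pairs all share QKI, which fell in both lines, so they are not separate results. The numerators ESRP1, ESRP2 and RBM47 themselves changed by −0.13, −0.32 and −0.11 in LNCaP, and by −0.39, 0.15 and 1.03 in PC3. The ratios were not tested.

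**Figure D4:**
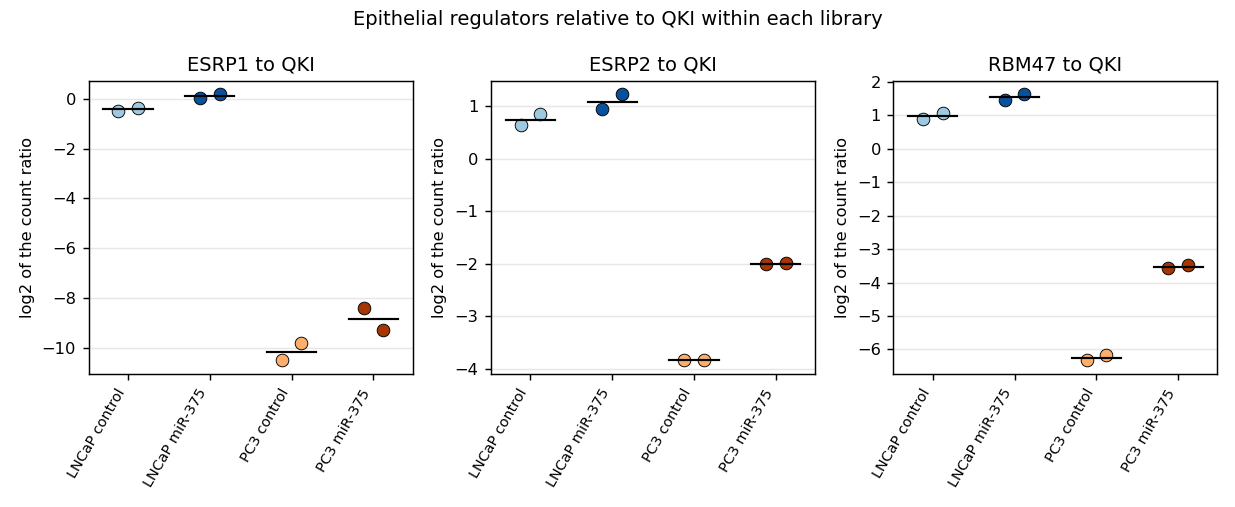
Log2 of the count ratio of ESRP1, ESRP2 and RBM47 to QKI in each library (vertical axis, a separate range per panel), by group; points are libraries and bars are means. In each line both miR-375 libraries lie above both controls, and the RBM47 to QKI shift in PC3 is 2.73. All panels share QKI as denominator, which fell in both lines.

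The genes whose profile over the 8 libraries was most like that of QKI, by Euclidean distance between gene-centred log2 CPM among 11812 genes, were SGO2 (distance 0.50), ESPL1 (0.54), YWHAZ (0.54), GPR137C (0.56) and DLGAP5 (0.56). Pearson's r with QKI was from 0.978 to 0.990 over these 8 libraries, which fall into 4 groups and share the line difference. YWHAZ, the most abundant of them, went from 779 to 374 CPM in LNCaP and from 1999 to 747 CPM in PC3 (group means). The nearest profile to MBNL1 was that of PTPN12 (0.17), to RBFOX2 that of AMOTL2 (0.16), to ESRP2 that of TOB1 (0.17) and to CELF1 that of UBE3C (0.06). For MBNL3 it was that of FUBP3 (0.19), although r was only 0.826. Nearest profiles lay further off for RBM47 with NETO1 (0.53), ESRP1 with BICDL2 (0.65) and MBNL2 with SYT1 (0.91). Those of QKI (0.50 to 0.56) also lay further off than those of MBNL1, RBFOX2, ESRP2, MBNL3 and CELF1.

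Other tissue-type splicing regulators were called in both directions, more often lower than higher. Of 30 listed, 24 were tested, and in LNCaP 3 rose and 7 fell (median −0.10, beside 0 over all tested genes), while in PC3 4 rose and 8 fell (median −0.01, beside 0.02). The PC3 rises include RBPMS2, which was close to absent there, at 0 CPM in the controls and 0.142 ± 0.201 with miR-375 (SD, n = 2). It was tested because of its LNCaP level (9.48 CPM in the controls). Of all tested genes 13.9% were higher and 18.7% lower in LNCaP, and 22.2% higher and 20.8% lower in PC3. With total-count scaling the list's counts became 3 and 4 in LNCaP and 4 and 7 in PC3, with medians of 0.02 and 0.07. Without the second PC3 control or the second PC3 miR-375 library 2 rose in PC3, and without the first LNCaP control or the first LNCaP miR-375 library the LNCaP median was 0.05 or 0.01. RBM24, a muscle splicing factor, fell from 56.2 ± 4.15 to 15.5 ± 1.70 CPM in LNCaP (SD, n = 2; −1.86 ± 0.11, edgeR adjusted p = 8.75e-17) and by 0.80 ± 0.15 in PC3. TIA1, which promotes use of weak splice sites, fell by 0.45 ± 0.07 in LNCaP and stood at 0.01 ± 0.05 in PC3, where it did not pass. SF1, which like QKI holds a KH RNA-binding domain and recognises the branch point, fell by 0.43 ± 0.03 in LNCaP and 0.39 ± 0.04 in PC3. NOVA2, a neuronal splicing factor, rose in PC3 from 4.49 ± 0.394 to 9.92 ± 0.831 CPM. KHDRBS3, a relative of QKI in the STAR family, rose by 0.35 ± 0.10 in LNCaP and fell by 0.64 ± 0.10 in PC3, a difference of 0.99 ± 0.14 (adjusted p = 8.82e-07). Without the first LNCaP miR-375 library the LNCaP rise of KHDRBS3 lost its call (adjusted p = 0.0755).

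Genes with exons known to be switched by ESRP, QKI, RBFOX or MBNL proteins were called lower more often than higher. All 30 were tested, with 5 higher and 15 lower in LNCaP (median −0.14) and 6 higher and 15 lower in PC3 (median −0.11), beside medians over all tested genes of 0 and 0.02. The shares of all tested genes were 13.9% higher and 18.7% lower in LNCaP, and 22.2% higher and 20.8% lower in PC3. Without the second PC3 control the PC3 median was −0.20. With total-count scaling the counts became 10 higher and 12 lower in each line (medians −0.01 and −0.04). ITGA6, an integrin with cell-type-specific cytoplasmic tails, fell from 632 ± 6.64 to 223 ± 4.76 CPM in PC3 (−1.50 ± 0.04) and by 0.59 ± 0.05 in LNCaP. SPAG9, a scaffold of JNK signalling, fell from 554 ± 0.398 to 251 ± 2.42 CPM in PC3 and by 0.69 ± 0.05 in LNCaP. NUMB, an adaptor that restrains Notch, fell by 0.84 ± 0.07 in LNCaP and 0.64 ± 0.06 in PC3. TCF7L2, a WNT pathway transcription factor, fell by 0.64 ± 0.10 in LNCaP and stood at 0.10 ± 0.09 in PC3, where it did not pass.

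MYOF, a membrane repair protein, fell by 0.73 ± 0.05 in PC3. In LNCaP its change of −0.76 ± 0.17 passed but fell to −0.29 (adjusted p = 0.257) without the first LNCaP control. ENAH, an actin regulator with an epithelial exon, fell by 0.52 ± 0.04 in LNCaP and rose by 0.18 ± 0.04 in PC3. CD44, the hyaluronan receptor with ESRP-dependent variant exons, rose in LNCaP from 0.886 ± 0.200 to 2.73 ± 1.28 CPM. In PC3, where it stood at 248 ± 11.5 CPM in the controls, CD44 had a change of −0.21 ± 0.07 (adjusted p = 0.0223) that lost its call with total-count scaling, with DESeq2 and without the first PC3 control or either PC3 miR-375 library (adjusted p from 0.123 to 0.654).

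Factors and markers that track ESRP levels in epithelial-mesenchymal change form a mixed list of epithelial and mesenchymal genes. Of 19 tested, 3 rose and 3 fell in LNCaP (median 0.02), and 8 rose and 4 fell in PC3 (median 0.63, beside 0.02 over all tested genes). All tested genes were also called more often in PC3, 22.2% higher and 20.8% lower against 13.9% and 18.7% in LNCaP, and the difference in counts between the lines was not tested. The PC3 median of 0.63 includes OVOL1, OVOL2, GRHL2 and GRHL3, which were close to absent in PC3. Their means there were 0, 0, 0.102 and 0.0778 CPM in the controls. With miR-375 they were 0.0119, 0.0237, 0.226 and 0.261 CPM. Each had a PC3 change above 0.63 that did not pass, so these genes raise the median, which does not show a rise of the whole list. The PC3 median was 0.39 without the second PC3 miR-375 library and 0.33 over the 15 genes tested in a fit of PC3 libraries only. The 8 that rose in PC3 were the epithelial genes CDH1, EPCAM, EHF and ELF3 and the mesenchymal genes ZEB2, SNAI1, TWIST1 and FN1, and the 4 that fell were ZEB1, SNAI2, VIM and KLF4. CDH1, the E-cadherin gene, rose in PC3 from 3.85 ± 0.487 to 16.4 ± 1.82 CPM (2.09 ± 0.09, edgeR adjusted p = 1.04e-20), against 396 ± 7.78 CPM in the LNCaP controls. In LNCaP its change was 0.11 ± 0.04, which passed (adjusted p = 0.0350). The epithelial adhesion gene EPCAM rose in PC3 by 1.41 ± 0.08, and EHF, an epithelial ETS factor, by 1.39 ± 0.07. EHF fell by 0.37 ± 0.05 in LNCaP. The epithelial keratins went the other way in PC3, where KRT8 fell by 0.69 ± 0.04 (adjusted p = 1.68e-17) and KRT18 fell by 0.23 ± 0.04 (adjusted p = 2.81e-05). ELF3, another epithelial ETS factor, rose in both lines, by 0.66 ± 0.07 and 0.63 ± 0.07, and KLF4 fell in both, by 0.74 ± 0.11 and 0.33 ± 0.09.

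Mesenchymal markers and factors did not move together. VIM, the vimentin gene, fell in PC3 from 245 ± 12.7 to 153 ± 3.91 CPM and rose in LNCaP by 0.38 ± 0.06. FN1, the fibronectin gene, did the reverse, rising by 0.43 ± 0.03 in PC3 and falling by 0.59 ± 0.03 in LNCaP. ZEB1, a repressor of ESRP1, GRHL2, an activator of epithelial genes, the keratins and the factors ZEB2, SNAI1, SNAI2 and TWIST1, which drive epithelial-mesenchymal change, were chosen after their values were seen. ZEB1 stood at 77.9 ± 5.71 CPM in the PC3 controls and fell by 0.39 ± 0.07 to 59.6 ± 1.31 CPM with miR-375 (adjusted p = 2.76e-05). SNAI2 also fell by 1.38 ± 0.11 in PC3. In the opposite direction ZEB2 rose by 1.04 ± 0.23 (from 3.44 to 7.10 CPM), SNAI1 by 1.18 ± 0.23 (from 2.16 to 4.91 CPM) and TWIST1 by 0.35 ± 0.10 (from 25.2 to 32.0 CPM) in PC3. GRHL2 had 142 ± 2.42 CPM in LNCaP without miR-375 against 0.102 ± 0.00281 in PC3, and its change passed in neither line (0.07 ± 0.05 in LNCaP, where total-count scaling gave 0.20 and adjusted p = 0.00169).

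**Figure D5:**
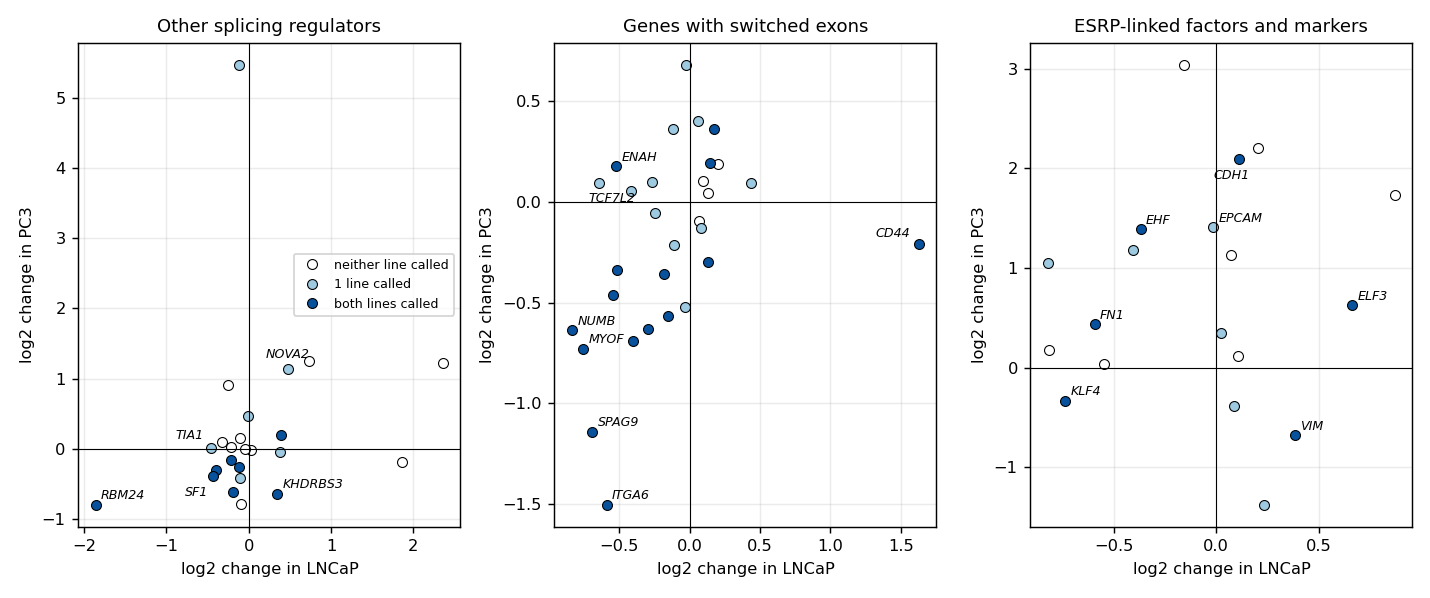
Log2 change with miR-375 in LNCaP (horizontal) against PC3 (vertical) for the tested genes of 3 lists, with 24, 30 and 19 genes; fill shows in how many lines the gene had an adjusted p under 0.05. Of the genes with switched exons 15 fell in each line, and CDH1, EPCAM and EHF lie high in PC3 without a like rise in LNCaP. The mesenchymal factors SNAI1 (1.18 in PC3) and ZEB2 (1.04), which are not labelled, also lie high in PC3 without a rise in LNCaP.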

How the data were processed

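The authors deposited whole-number counts per gene for all libraries in 1 table. The submitters' processing notes name hg38, featureCounts, STAR 2.7.1a, fastp and DESeq2, with roles, gene annotation and counting strand not given in the sources used here. Of counts from 1 to 20, 68.1% to 70.3% per library were even, so mates may have been counted singly, and counts halved and rounded up were an alternative. Of 60625 lines 3 were broken and left out. Every count column matched a sample.

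Genes passing filterByExpr (21066) were fitted in 1 model of 4 groups (4 residual degrees of freedom) with edgeR 4.0.16 (TMM, glmQLFit robust, glmQLFTest) in R 4.3.3, tested on simulated data, with Benjamini-Hochberg adjustment over all tested genes. SE is the log2 change divided by the square root of F. Alternatives used limma 3.58.1 and DESeq2 1.42.0. Replicate counts differed (chi-square over its degrees of freedom 3.65 to 3.82), so none was a copy of the other. Mates counted singly would themselves raise this value, so it does not show how far replicates differ beyond counting noise. Nor can it tell a separate culture from a second library of the same RNA. Tests and intervals use a spread per gene that edgeR moderates with the spread of the other genes, so they rest on more than the 4 residual degrees of freedom. Intervals cover the spread between libraries and no other error.

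The members and lists were chosen with earlier results of these data known. All members are described. Of each list, the 3 called genes with the largest change in each line at 5 CPM or more are named, and those called in opposite directions. 1 gene that this rule names is not reported here. For likeness, QKI has its 5 nearest genes and other members their nearest, at a mean of 5 CPM or more. 3′ UTRs and exon lengths are from GENCODE v29 (GRCh38), and site classes use the longest 3′ UTR of a gene.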

Additional observations from a re-analysis of the deposited data

Results flagged for a closer look

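The change with miR-375 differed between the lines for 5 members, by edgeR's test of the difference itself (log2 change in LNCaP minus that in PC3). The differences were 1.04 for QKI (adjusted p = 2.09e-10), −0.47 for ESRP2 (adjusted p = 0.000251), 0.42 for RBFOX2 (adjusted p = 6.26e-06), 0.21 for MBNL1 (adjusted p = 0.0162) and −1.15 for RBM47 (adjusted p = 1.92e-08). QKI and MBNL1 fell in both lines, further in PC3, whereas RBFOX2 and ESRP2 passed in LNCaP alone and RBM47 in PC3 alone. The call of the MBNL1 difference ended without the first PC3 control (0.19) or the first PC3 miR-375 library (0.19). ESRP2 also passed in PC3 with total-count scaling (0.22). With 2 libraries a group, no library could be tested as an outlier.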

How the results depend on the processing

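Of 566 values of single members under 18 alternatives, 559 kept their direction where called and their side of the threshold, 3 lost a call, 4 gained one and none reversed; the 7 concern CELF1, ESRP2, MBNL1 and MBNL2. The 4 counts of called members (4 in LNCaP, 4 in PC3, 5 for the difference, 8 between controls) ran from 4 to 5, 4 to 5, 4 to 6 and 8 to 8. With replicate number as a block they were 4, 4, 5 and 8, and the block changed no call of a member or named list gene. Over all tested genes, the number called went from 6860 to 6617 in LNCaP and from 9059 to 8777 in PC3. Replicate numbers did not pair the libraries (r of same-numbered deviations from −0.01 to 0.02 over 21066 genes). Leaving out each library in turn gave 4 to 4, 4 to 4, 4 to 6 and 8 to 8 called members, and log2 shifts of ESRP1 to QKI from 0.46 to 0.60 in LNCaP and from 0.88 to 1.74 in PC3. Total-count scaling moved the median of all tested genes from 0 to 0.12 in LNCaP, with 4719 higher and 2613 lower against 2927 and 3933, and from 0.02 to 0.10 in PC3, with 5672 and 3602 against 4679 and 4380, so the direction of changes smaller than that shift depends on the scaling. The difference between lines for MYOF turned from −0.03 to 0.47 (adjusted p = 0.0319) without the first LNCaP control and was −0.29 without the second; the cause was not tested. CELF2 and, in PC3, ESRP1 are limited by depth.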
